A study of Mus musculus with 9 samples.

Results

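The suppressors of cytokine signaling (SOCS) and their relative CISH are intracellular proteins that end signaling by cytokine receptors. The 8 genes of this family in the mouse, Cish and Socs1 to Socs7, were taken by their symbols from the 54059 genes measured. All 8 had a mean FPKM (fragments per kilobase of transcript, scaled to the mapped fragments of the library) of at least 1 over the 9 libraries, so that every member could be tested among the 11450 genes that reached this level.

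RNA was sequenced from peritoneal macrophages of C57BL/6 mice in 3 groups of 3 libraries. The mice were 8 weeks old by the sample labels and 8 to 10 weeks old by the study's methods. They received 1 ml of starch broth into the peritoneal cavity, which was washed out after 3 days, and the adherent cells were taken as macrophages. All 3 groups were stimulated in culture with IMQ (imiquimod), an agonist of the endosomal receptor TLR7, at 10 µg/ml for 4 h, and no unstimulated library was analysed here. The WT group came from wild-type mice. The M-Shp2-/- group came from mice in which Lyz2-cre deletes a floxed Shp2 allele, and this Cre acts in monocytes and granulocytes as well as in macrophages. The SHP099 group was wild-type macrophages given 10 µM of SHP099, an allosteric inhibitor of the phosphatase SHP2, for 2 h before IMQ. The study's legend describes the wild-type cells without SHP099 as untreated and as a medium control. The labels do not say whether the samples of a group came from separate animals, so that p-values measure only the spread between these samples.

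The SOCS proteins share a central SH2 domain, which binds phosphorylated tyrosines of cytokine receptors or of Janus kinases (JAK), and a SOCS box at the carboxyl end, which recruits elongins and cullin 5 to form a ubiquitin ligase. CISH, SOCS1, SOCS2 and SOCS3 are known as products of genes that STAT transcription factors switch on after cytokine stimulation, so that they close a negative feedback loop on the same receptors. In macrophages SOCS3 is known to restrain signaling through the IL-6 receptor chain gp130, SOCS1 to restrain the response to interferons, and CISH to be induced through STAT5 by cytokines such as GM-CSF. The remaining members, SOCS4 to SOCS7, are less known for induction by cytokines and have been linked to growth factor receptors and adaptor proteins.

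Ptpn11, the gene that encodes SHP2, had an FPKM of 45.8, 44.0 and 40.0 in the WT libraries. It had an FPKM of 18.6, 17.8 and 18.9 in the M-Shp2-/- libraries. After SHP099 it had an FPKM of 43.0, 42.1 and 39.6. All 3 M-Shp2-/- libraries lay below every other library, while the WT and SHP099 libraries overlapped. The fit with limma on log2(FPKM + 1) put Ptpn11 at -1.19 on the log2 scale in M-Shp2-/- against WT (adjusted p = 0.0168, standard error 0.10, lower in 3 of 3 libraries) and at -0.05 in SHP099 against WT (adjusted p = 0.729). In M-Shp2-/- against WT it passed an adjusted p of 0.05 in 12 of 17 alternatives, and the adjusted p reached 0.196 without M-Shp2-/- replicate 1, where the log2 fold change was -1.19.

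The reads behind each library, recovered from the steps in the FPKM values, numbered 39842143 to 50979896. One library in each of the WT and M-Shp2-/- groups stood apart from its group. Over the tested genes, M-Shp2-/- replicate 3 correlated with the other libraries of its group at 0.967 and 0.954, against 0.992 between those. WT replicate 3 correlated with the other WT libraries at 0.976 and 0.974, against 0.984 between those. The SHP099 libraries correlated at 0.988 to 0.991. Results on Cish, Socs1, Socs2 and Socs3 are therefore also given without these 2 libraries.

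The 8 macrophage markers were all detected, and Lyz2 was the most abundant of them. Their summed FPKM was 10420.2, 13421.3 and 11188.7 in WT, 7595.4, 7468.4 and 8412.0 in M-Shp2-/- and 11778.3, 13005.2 and 13736.2 in SHP099 libraries, so that this sum was lowest in the M-Shp2-/- libraries. It rests on Lyz2, the locus of the Cre driver. Without Lyz2 it was 2979.9, 3193.5 and 3237.9 in WT, 2732.3, 2725.8 and 3005.1 in M-Shp2-/- and 2430.1, 2725.3 and 3020.7 in SHP099 libraries, with overlap between M-Shp2-/- and both other groups. The markers did not all go one way, and Csf1r, named after its values were seen, had an FPKM of 58.2, 67.8 and 110.6 in WT against 181.1, 211.2 and 205.9 in SHP099 libraries and rose by 1.38 on the log2 scale (adjusted p = 0.0222 from limma). Of 9 fibroblast and mesothelial markers 6 had a mean FPKM of at least 1, led by Col1a1. Their summed FPKM was 65.8, 308.3 and 41.0 in WT, 137.8, 52.8 and 594.0 in M-Shp2-/- and 366.6, 141.0 and 103.2 in SHP099 libraries, so that M-Shp2-/- replicate 3 had the highest level. Of 7 T cell markers only Lck reached a mean FPKM of 1, and the summed level was 2.25, 3.71 and 9.27 in WT, 2.38, 1.799 and 5.49 in M-Shp2-/- and 7.82, 6.33 and 5.78 in SHP099 libraries. None of the 4 markers of natural killer cells reached a mean FPKM of 1. Their summed level was 1.67 in WT replicate 3, with Gzma as the most abundant gene, and at most 0.432 in every other library. Without Gzma this sum was 0.113 in WT replicate 3 and 0.155 in SHP099 replicate 1. Of 5 dendritic cell markers 1 reached a mean FPKM of 1, Ccr7, and the summed level was 6.14, 3.95 and 3.78 in WT, 7.40, 5.25 and 3.56 in M-Shp2-/- and 1.498, 1.03 and 1.35 in SHP099 libraries. Of 5 mast cell markers 1 reached it, Kit, with a sum of 5.62, 3.998 and 4.75 in WT, 2.48, 3.17 and 0.995 in M-Shp2-/- and 0.654, 0.495 and 0.970 in SHP099 libraries. The 4 eosinophil markers, led by Siglecf, stayed below it, with sums of 0.383 to 0.930 in WT, 0.280 to 0.727 in M-Shp2-/- and 0.0186 to 0.0368 in SHP099 libraries. All SHP099 libraries thus lay below all WT libraries in these 3 lists. Of 8 neutrophil markers, led by S100a8, 2 reached a mean FPKM of 1, and the sums of the groups overlapped, at 39.1 to 97.0 in WT, 41.1 to 101.7 in M-Shp2-/- and 51.6 to 77.4 in SHP099 libraries.

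The part of these cells in the results below was not tested, and fewer cells of a type and less RNA per cell cannot be told apart in such samples.

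The members differed widely in level. Socs3 was the most abundant in all 9 libraries and made up between 87.5% and 94.3% of the FPKM summed over the family. In the WT group the order of the mean FPKM was Socs3 (1138 ± 333, SD, n = 3), Socs1 (23.9 ± 16.3), Cish (13.6 ± 2.67), Socs4 (13.2 ± 0.67), Socs7 (10.6 ± 0.45), Socs6 (9.25 ± 1.07), Socs5 (4.94 ± 1.24) and Socs2 (2.75 ± 1.37). The WT libraries of Socs3 did not overlap with those of Socs1, those of Socs4 did not overlap with those of Socs7, and those of Socs6 did not overlap with those of Socs5. The other neighbours in this order overlapped. In the M-Shp2-/- and in the SHP099 group Socs4, Socs7 and Socs6 followed Socs3, in this order and without overlap between these neighbours. Below them, Socs1, Socs5, Cish and Socs2 followed in both groups by their means. Libraries of these neighbours overlapped, except those of Socs5 and Cish in the SHP099 group, and those of Socs6 and Socs1 overlapped in both groups. By the means, Cish and Socs1, which stood above Socs4 in WT, thus ranked below Socs6 in both other groups.

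The summed FPKM of the 8 members was 960.6, 1080.4 and 1608.9 in the WT libraries. It was 548.1, 499.9 and 482.9 in the M-Shp2-/- libraries and 417.1, 360.0 and 500.3 in the SHP099 libraries. All libraries of both groups lay below all WT libraries. Without Socs3 the sum was 72.3, 70.5 and 92.1 in WT, 59.9, 56.9 and 48.8 in M-Shp2-/- and 48.7, 45.0 and 50.1 in SHP099 libraries, so that the lower level was not confined to Socs3.

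**Figure D1:**
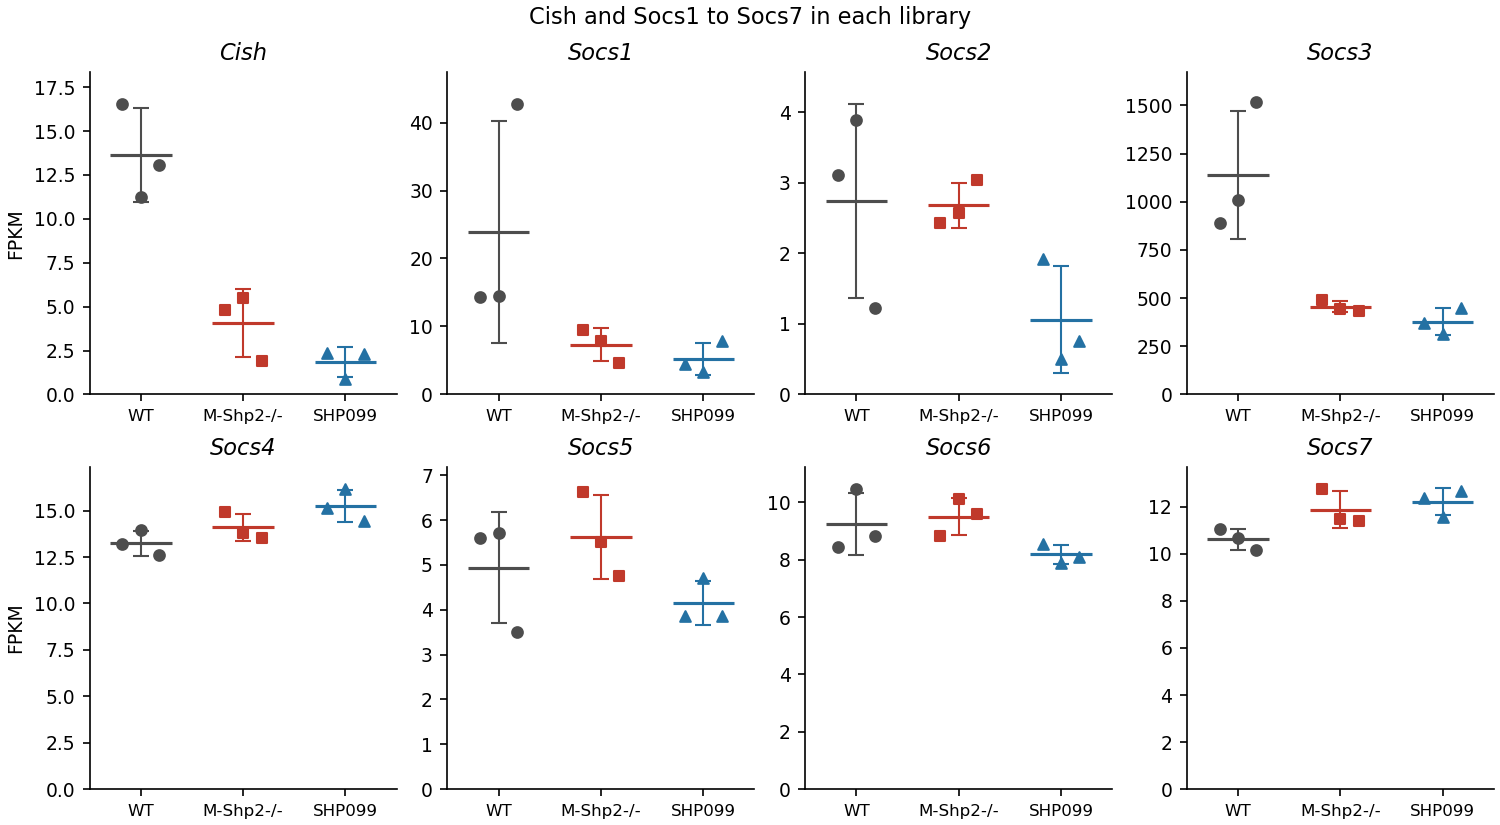
FPKM of Cish and Socs1 to Socs7 (vertical axes, one scale per gene, starting at 0) in each of the 3 libraries of the WT, M-Shp2-/- and SHP099 groups. Points are libraries, horizontal lines are group means and error bars are SD (n = 3); in Cish, Socs1 and Socs3 all WT libraries lie above all others, whereas Socs4 to Socs7 differ less between groups.

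Cish, whose protein binds receptors that signal through STAT5, lies on chromosome 9 (ENSMUSG00000032578, GRCm38, 107296026 to 107302784, plus strand). Among the promoter windows of RefSeq, 250 bases before to 50 bases after the start of a gene, 4 of the 8 members were matched: Cish, Socs1, Socs3 and Socs4. These windows were searched for the letters bound by the STAT and IRF factors that are known to act on the family. Stretches are shown for the 3 members whose window held a match, Cish, Socs3 and Socs1. Members without a window were not searched. The motifs searched were TTCNNNGAA, the GAS element bound by STAT dimers, which reads the same on both strands, and an IRF element of GAAA, any 2 bases and GAAA, on both strands and with overlapping matches allowed. TTCNNNGAA was present in 8.3% of all 32851 windows and at 2 or more places in 0.457%, and the IRF element in 3.44% and at 2 or more places in 0.225%. A match is a description of letters, not a site or a cause. The Socs4 window held 0 matches to either motif. The Cish window held 0 matches to the IRF element and 2 to TTCNNNGAA, both within the first 30 bases after the start (chr9:107296659-107296688, GRCm38.p6, plus strand). This stretch lies in an annotated 5′ untranslated exon of Cish and within a transcript of the opposite-strand gene Gm17040, outside its exons. It is printed with the matches in capitals.
Cish: TTCCTGGAAagTTCTTGGAAatctgtcaaa

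The FPKM of Cish was 16.5, 11.3 and 13.1 in the WT libraries. It was 4.80, 5.51 and 1.88 in the M-Shp2-/- libraries. After SHP099 it was 2.36, 0.873 and 2.31. Every WT library lay above every other library, the M-Shp2-/- and SHP099 libraries overlapped, and M-Shp2-/- replicate 3 was lower than the other libraries of its group. The lowest value stood for 77 reads and the highest for 1624. Cish fell by 2.39 on the log2 scale in SHP099 against WT (standard error 0.26, 95% confidence interval -3.00 to -1.78, adjusted p = 0.00846 from limma, lower in 3 of 3 libraries), to 13.6% of the WT mean. Its mean in M-Shp2-/- was 29.8% of that of WT, and the log2 fold change was -1.60 (standard error 0.33, interval -2.38 to -0.82), lower in 3 of 3 libraries, and it did not pass the test over all genes (limma, adjusted p = 0.388). Without M-Shp2-/- replicate 3 this was -1.23 (adjusted p = 0.142), and without WT replicate 3 it was -1.62 (adjusted p = 0.604), while SHP099 against WT was then -2.42 (adjusted p = 0.0125). Exons of Cish overlap Gm17040 and Gm17041 on the opposite strand over 4.07% and 7.46% of their length. The mean FPKM of these genes was 0.0332 and 0, but the strand of counting is not given, so that reads of Cish and of these genes cannot be told apart.

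Socs3, the inhibitor of signaling through gp130, lies on chromosome 11 (ENSMUSG00000053113, 117966079 to 117970047, minus strand). The RefSeq window held 1 match to TTCNNNGAA, 154 bases before the start, and none to the IRF element. The 250 bases before the start (chr11:117969367-117969616, GRCm38.p6, minus strand) lie within an annotated non-coding transcript of Socs3, in its intron, and 77 of them are an exon of another non-coding transcript of the gene. They are printed with the match in capitals.
Socs3: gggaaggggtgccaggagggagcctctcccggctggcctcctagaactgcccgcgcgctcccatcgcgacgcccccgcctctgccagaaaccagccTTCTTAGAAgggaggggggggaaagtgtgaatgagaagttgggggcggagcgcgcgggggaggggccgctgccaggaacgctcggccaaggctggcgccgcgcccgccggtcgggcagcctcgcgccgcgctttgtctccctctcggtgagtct

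The FPKM of Socs3 was 888, 1009.9 and 1517 in the WT libraries. It was 488, 443 and 434 in the M-Shp2-/- libraries. After SHP099 it was 368, 315 and 450.2. No library of either group reached the lowest WT library, and WT replicate 3 was the highest of all. Socs3 fell by 1.57 on the log2 scale in SHP099 against WT (standard error 0.22, 95% confidence interval -2.08 to -1.05, adjusted p = 0.0157 from limma, lower in 3 of 3 libraries), to 33.2% of the WT mean. In M-Shp2-/- against WT the mean was 40.0% of that of WT and the log2 fold change -1.28 (standard error 0.20, interval -1.76 to -0.80), again lower in 3 of 3 libraries, with an adjusted p of 0.204. Without WT replicate 3 the log2 fold changes were -1.34 (adjusted p = 0.0115) for SHP099 and -1.06 (adjusted p = 0.0893) for M-Shp2-/- against WT, and without M-Shp2-/- replicate 3 the latter was -1.25 (adjusted p = 0.207). The adjusted p for SHP099 against WT was 0.0651 without SHP099 replicate 1 and 0.0888 without SHP099 replicate 2.

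Socs1, which inhibits JAK kinases directly and restrains interferon responses, lies on chromosome 16 (ENSMUSG00000038037, 10782240 to 10785536, minus strand). Its window held no match to TTCNNNGAA and 2 overlapping matches to the IRF element, 83 and 77 bases before the start. The 250 bases before the start (chr16:10785537-10785786, GRCm38.p6, minus strand) lie between genes in the annotation, directly before the first exon of Socs1. They are printed with both matches as 1 run of capitals.
Socs1: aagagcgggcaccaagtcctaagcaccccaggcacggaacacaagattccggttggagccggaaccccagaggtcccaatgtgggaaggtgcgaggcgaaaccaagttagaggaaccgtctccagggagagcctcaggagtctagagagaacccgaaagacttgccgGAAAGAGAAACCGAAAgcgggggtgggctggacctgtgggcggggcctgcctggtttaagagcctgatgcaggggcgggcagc

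The FPKM of Socs1 was 14.4, 14.5 and 42.7 in the WT libraries. It was 9.51, 7.89 and 4.63 in the M-Shp2-/- libraries. After SHP099 it was 4.52, 3.31 and 7.91. All WT libraries lay above all others, but 1 of them, replicate 3, was far above the other WT libraries, and the M-Shp2-/- and SHP099 libraries overlapped. The log2 fold change was -1.87 (standard error 0.45, 95% confidence interval -2.93 to -0.81) in SHP099 and -1.44 (standard error 0.45, interval -2.51 to -0.36) in M-Shp2-/- against WT, each lower in 3 of 3 libraries, and neither passed the test (adjusted p = 0.0534 and 0.455 from limma). Without WT replicate 3 these were -1.37 (adjusted p = 0.0393) and -0.94 (adjusted p = 0.643), so that Socs1 passed the threshold of 0.05 for SHP099 against WT, and without M-Shp2-/- replicate 3 the value for M-Shp2-/- was -1.18 (adjusted p = 0.250). Ifng, the gene of interferon gamma, was highest in the same library, with an FPKM of 5.06, 11.9 and 38.8 in the WT libraries. Usp18 had 13.0, 17.3 and 55.9 and Irf1 had 249, 286 and 1062 in them. The summed T cell markers were also highest in WT replicate 3, at 9.27. So were the summed natural killer cell markers, but through Gzma. Without Gzma their sum was 0.113 in WT replicate 3 and 0.155 in SHP099 replicate 1. Ifng, Usp18 and Irf1 are named after their values were seen, and the part of this library's interferon-related genes in the level of Socs1 was not tested.

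Socs2, best known as a brake on growth hormone signaling (ENSMUSG00000020027, chromosome 10, 95385362 to 95417180, minus strand), had the lowest mean level in each group, with an FPKM of 3.11, 3.90 and 1.23 in the WT libraries. It had 2.43, 2.57 and 3.05 in the M-Shp2-/- libraries. After SHP099 it had 1.93, 0.495 and 0.756. The WT libraries overlapped with both other groups, and WT replicate 3, which was the highest library for Socs1 and Socs3, was the lowest WT library for Socs2. The recovered reads ranged from 28 to 282. The log2 fold change was 0.05 (adjusted p = 0.941) in M-Shp2-/- and -0.85 (standard error 0.36, adjusted p = 0.191) in SHP099 against WT, and the sign of the former turned with scaling, to -0.07 with median-of-ratios scaling. Without WT replicate 3 these were -0.29 (adjusted p = 0.805) and -1.19 (adjusted p = 0.0603), and without M-Shp2-/- replicate 3 the former was -0.02 (adjusted p = 0.972). All 3 M-Shp2-/- libraries lay above all 3 SHP099 libraries, a log2 fold change of 0.90 between these groups (standard error 0.27, 95% confidence interval 0.26 to 1.53, adjusted p = 0.321).

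Socs4 (ENSMUSG00000048379, chromosome 14, 47276931 to 47296102, plus strand) and Socs5 (ENSMUSG00000037104, chromosome 17, 87107679 to 87137839, plus strand), which are linked to the EGF receptor, varied little between libraries. So did Socs6 (ENSMUSG00000056153, chromosome 18, 88665224 to 88927481, minus strand) and Socs7 (ENSMUSG00000038485, chromosome 11, 97362551 to 97398542, plus strand). The FPKM of Socs4 lay between 12.6 and 16.2, that of Socs5 between 3.51 and 6.62, that of Socs6 between 7.89 and 10.5, and that of Socs7 between 10.2 and 12.8 over the 9 libraries. The highest library was above the lowest by a factor of 1.28 for Socs4, 1.33 for Socs6, 1.26 for Socs7 and 1.89 for Socs5, against 18.9 for Cish, 12.9 for Socs1, 7.87 for Socs2 and 4.82 for Socs3. In M-Shp2-/- against WT the log2 fold changes were 0.08 (95% confidence interval -0.16 to 0.33) for Socs4, 0.17 (-0.32 to 0.66) for Socs5, 0.04 (-0.27 to 0.34) for Socs6 and 0.15 (-0.11 to 0.41) for Socs7. In SHP099 against WT they were 0.19 for Socs4, -0.19 for Socs5, -0.15 for Socs6 and 0.18 for Socs7. No adjusted p of these 4 genes in these comparisons was below 0.256. The intervals exclude a difference of 1 on the log2 scale in either direction, but not smaller ones.

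Such small differences rest on the scaling of the libraries. The median log2 fold change over all tested genes was 0.15 in M-Shp2-/- and 0.13 in SHP099 against WT, and it was -0.01 in both with median-of-ratios scaling. With that scaling the log2 fold changes in M-Shp2-/- against WT were -0.08 for Socs4, 0.03 for Socs5, -0.12 for Socs6 and -0.02 for Socs7, so that the direction turned for Socs4, Socs6 and Socs7, and it turned for Socs5 with quantile normalization. In SHP099 against WT they were 0.05 for Socs4, -0.31 for Socs5, -0.29 for Socs6 and 0.05 for Socs7. For Cish, Socs1 and Socs3 this scaling gave -1.76, -1.60 and -1.46 in M-Shp2-/- and -2.52, -2.01 and -1.72 in SHP099 against WT, so that these 3 kept their direction.

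The members were then counted in each comparison against all tested genes. For M-Shp2-/- against WT limma passed 0 of 8 members at an adjusted p of 0.05, where it passed 0.0873% of all tested genes, 10 genes that were all lower. At an unadjusted p under 0.05 there were 3 members (10.5% of all genes), and limma's voom on the recovered reads also gave 0 at the adjusted threshold. Libraries of M-Shp2-/- and WT were fully separated for 3 of 8 members in the lower direction, Cish, Socs1 and Socs3, against 3.07% of all genes, and for 1 of 8 in the higher direction, Socs7, against 16% of all genes (19.1% in either direction). After median-of-ratios scaling Socs7 was no longer separated, and 9.13% of all genes were separated as lower and 6.22% as higher. The median log2 fold change was 0.04 over the 8 members, of which 3 were below 0 and 5 above, beside 0.15 over all genes, and the sign of Socs2, Socs4, Socs6 and Socs7 turned with median-of-ratios scaling and that of Socs5 with quantile normalization.

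In SHP099 against WT 2 of 8 members, Cish and Socs3, passed an adjusted p of 0.05, both lower, where 6.96% of all tested genes passed, 2.41% as lower and 4.55% as higher. At an unadjusted p under 0.05 there were 3 members (26.7% of all genes), and by voom 2 members passed at the adjusted threshold. Without SHP099 replicate 1 or without SHP099 replicate 2 the count was 1, without WT replicate 3 it was 3, and with no filter on low FPKM it was 0 (adjusted p = 0.0623 for Cish and 0.0809 for Socs3). The libraries did not overlap for 3 of 8 members in the lower direction, Cish, Socs1 and Socs3, against 6.77% of all genes, and for 2 of 8 in the higher direction, Socs4 and Socs7, against 27.9% (34.6% in either direction). After median-of-ratios scaling Socs4 and Socs7 overlapped and Socs6 was separated as lower, and the shares of all genes were 14.6% lower and 13.9% higher. The median log2 fold change was -0.52 over the members, of which 6 were below 0 and 2 above, beside 0.13 over all genes. At the stricter thresholds of the study's methods, 0.005 for the adjusted p and a log2 difference of 1 or more up or down, 0 of 8 members were called by limma or by voom in any of the comparisons. The study applied these thresholds with another test, that of the DESeq package, so that these counts are not the study's own calls. At these thresholds 0.00873% of all genes were called in M-Shp2-/- against WT, 0.166% in SHP099 against WT and 0% in M-Shp2-/- against SHP099.

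**Figure D2:**
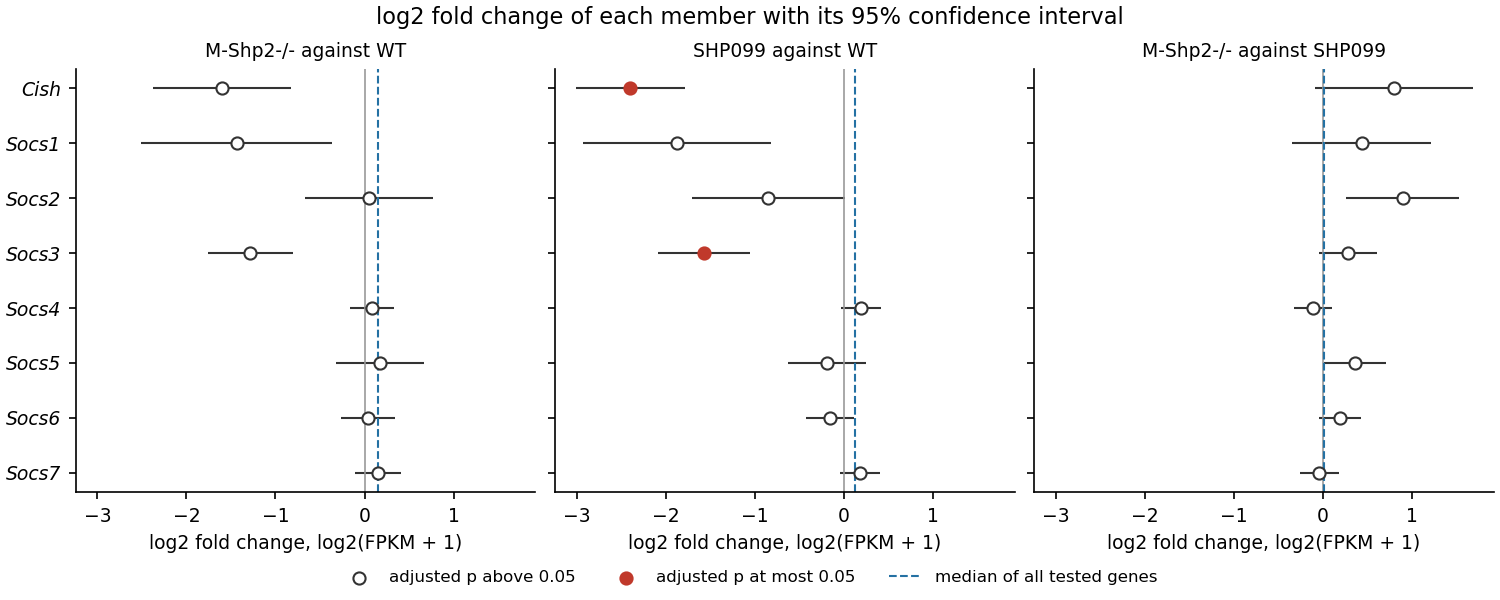
log2 fold change of each member on the log2(FPKM + 1) scale (horizontal axis) in the 3 comparisons, with lines for the 95% confidence interval from limma (3 libraries per group), filled points for an adjusted p of at most 0.05 over all tested genes and a dashed line for the median of all tested genes. Only Cish and Socs3 in SHP099 against WT pass; in M-Shp2-/- against WT the direction of Socs2, Socs4, Socs6 and Socs7 turns with median-of-ratios scaling and that of Socs5 with quantile normalization.

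**Figure D3:**
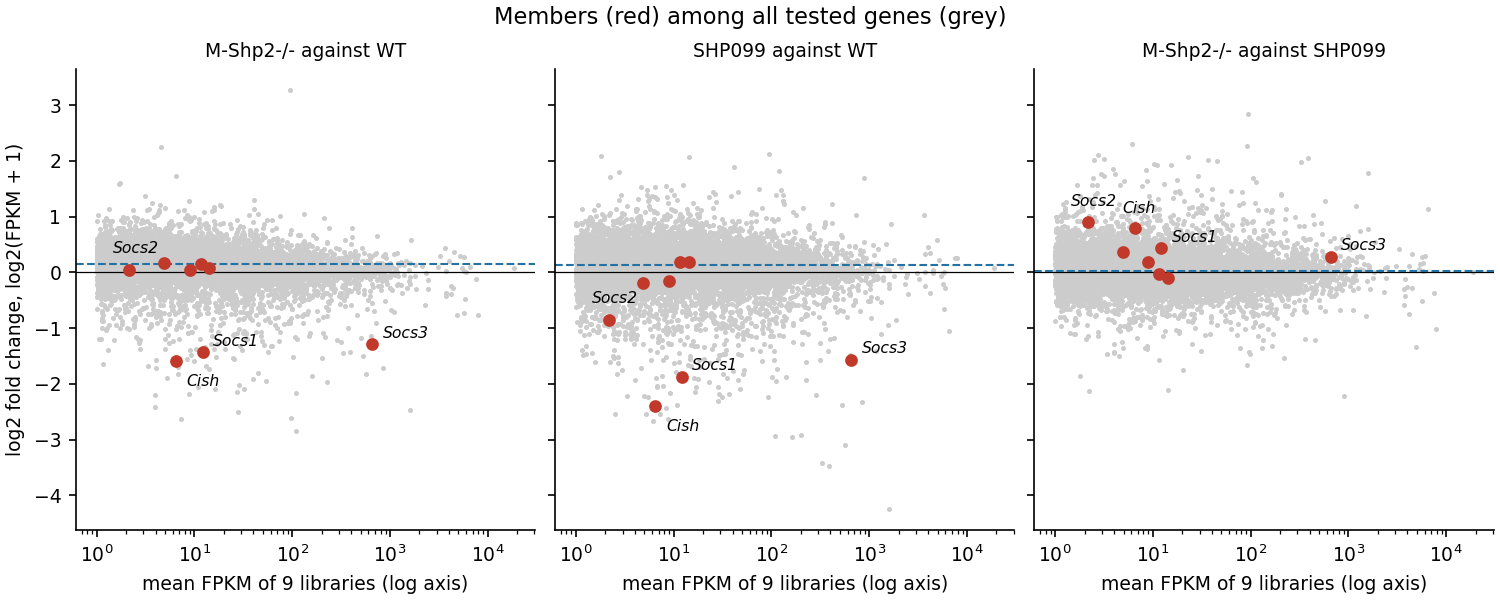
log2 fold change (vertical axis, log2(FPKM + 1) scale) against the mean FPKM over 9 libraries (horizontal log axis) for the 11450 tested genes in grey and the 8 members in red, with Cish, Socs1, Socs2 and Socs3 named and a dashed line at the median of all genes. Cish, Socs1 and Socs3 lie in the lower margin of both comparisons with WT, Socs3 far to the right of the other members, and the unnamed Socs4 to Socs7 lie near the median line.

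Both comparisons with WT use the same WT libraries, so that their values are not independent. Side by side, the log2 fold change in M-Shp2-/- and in SHP099 was -1.60 and -2.39 for Cish, -1.44 and -1.87 for Socs1 and -1.28 and -1.57 for Socs3. The direct comparison, which does not use the WT libraries, asks whether loss of the gene and inhibition of the protein gave different levels. There limma passed 0 of 8 members at an adjusted p of 0.05, where it passed 0.0699% of all genes, 0.0437% as lower and 0.0262% as higher. There were 2 members at an unadjusted p under 0.05, Socs2 and Socs5 (12.6% of all genes), and 0 at the adjusted threshold by voom. The log2 fold change was 0.80 for Cish (95% confidence interval -0.09 to 1.68), 0.44 for Socs1 (-0.35 to 1.22) and 0.28 for Socs3 (-0.04 to 0.61), so that these intervals include 0. Without M-Shp2-/- replicate 3 the count was 1, since Cish then lay higher by 1.16 on the log2 scale (limma, adjusted p = 0.0338), and 2277 of all genes in place of 8 passed. In that fit Socs2 lay higher by 0.83 (adjusted p = 0.0998 from limma), Socs1 by 0.70 (adjusted p = 0.145) and Socs3 by 0.31 (adjusted p = 0.181).

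Libraries did not overlap between M-Shp2-/- and SHP099 for 3 of 8 members in the higher direction, Socs2, Socs5 and Socs6, against 7.9% of all genes, and for 0 of 8 in the lower direction, against 9.76% (17.7% in either direction). Socs5 differed by 0.36 (95% confidence interval 0.01 to 0.71, adjusted p = 0.394) and Socs6 by 0.19 (adjusted p = 0.455). After median-of-ratios scaling Socs6 overlapped and Socs4 was separated as lower, while Socs2 and Socs5 remained separated, and the shares of all genes were 10.2% lower and 8.78% higher. The median log2 fold change was 0.32 over the members, of which 2 were below 0 and 6 above, beside 0.02 over all genes.

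Correlations between members over the 9 libraries are given as a description on log2(FPKM + 1), the libraries fall into the 3 groups, and r of the deviations from the group means is given beside r over all libraries. Socs1 and Socs3 had a Pearson r of 0.95 and a Spearman rho of 1 (n = 9), and r was 0.94 for the deviations, to which WT replicate 3 belongs with the highest level of both. Cish had r = 0.90 with Socs3 and 0.87 with Socs1 (rho 0.83 for both, n = 9), but r was 0.23 and 0.46 for the deviations, so that these pairs were alike mainly between groups. Socs2 was most like Socs6 among the members (r = 0.77, rho 0.72, deviations 0.54). In the deposited FPKM, Socs3 and Socs4 ran in opposite directions (r = -0.79, rho -0.67, deviations -0.53). Socs4 and Socs5 had an r of 0.12 over all libraries and of 0.83 for the deviations. All these correlations use the deposited FPKM without further scaling. Median-of-ratios scaling divides by 0.830 in WT replicate 3 and by 1.11 in M-Shp2-/- replicate 1, whereas Socs4 spanned only a factor of 1.28. The correlations of Socs4 can therefore change, also in sign, with the scaling, and they were not computed after it.

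**Figure D4:**
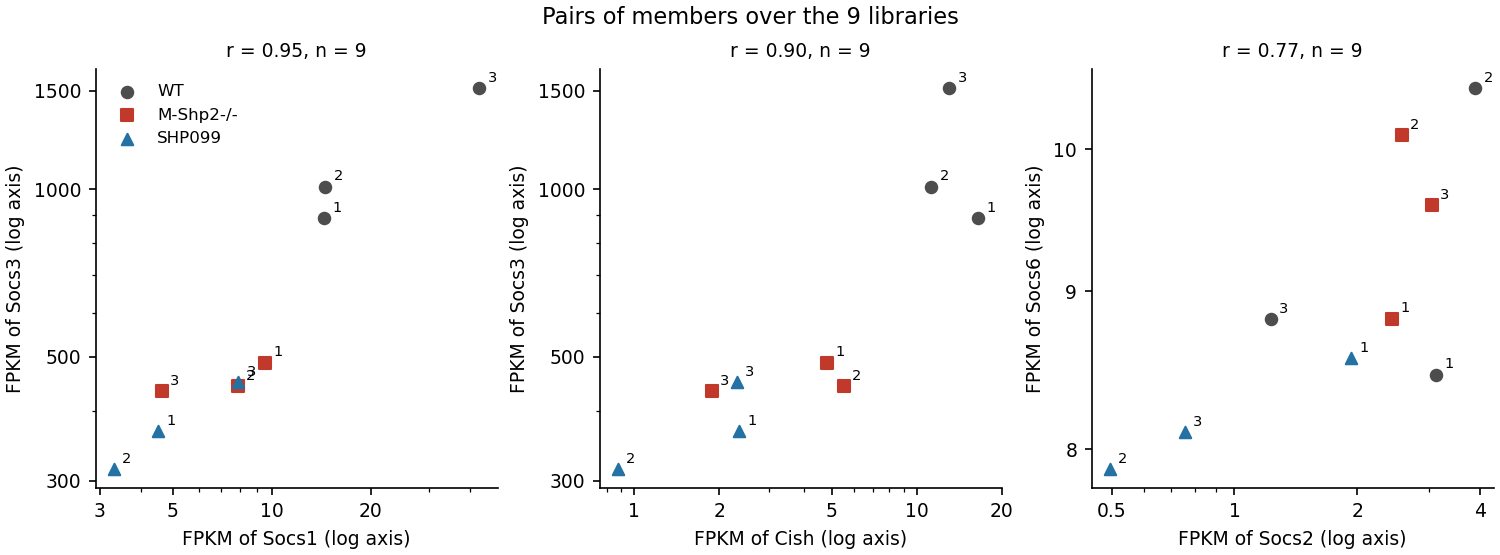
FPKM of one member against another on log axes for Socs1 and Socs3, Cish and Socs3, and Socs2 and Socs6, with one point per library, numbered by replicate and marked by group. WT replicate 3 holds the highest Socs1 and Socs3 (42.7 and 1517) but not the highest Cish, and the titles give Pearson's r on log2(FPKM + 1) over the 9 libraries.

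Among all tested genes the one most like Cish was Zfp658 (r = 0.985), followed by Plaur and Ranbp2 (both r = 0.978), each over 9 libraries. Among those most like Socs3 were P2ry14 (0.978) and Furin (0.975). Those most like Socs1 were Xkr8 (0.967), Tnip1 (0.965) and Ist1 (0.962). For Socs2 they were Lpp (0.963), Agtpbp1 (0.945) and Slc8a1 (0.944). The genes most like the less variable members were Saysd1 (0.979), Rpl14-ps1 (0.969) and Bag5 (0.966) for Socs4, Rpl10a (0.969), Dph2 (0.967) and Zfp65 (0.959) for Socs5, Mfge8 (0.918), Zfp608 (0.910) and Spsb4 (0.908) for Socs6, and Clec4n (0.953), Iscu (0.952) and Ap2a1 (0.949) for Socs7. With 11450 genes and 9 libraries, high values of r are to be found for any gene. These r also use the deposited FPKM without further scaling, which matters most for the less variable members. Rpl14-ps1 is a pseudogene that can share reads with its parent gene.

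The members act on receptors of the JAK-STAT pathway, and the other genes of this pathway were counted by role. Of 26 cytokine ligands 13 reached a mean FPKM of 1. In SHP099 against WT 6 of these 13 passed an adjusted p of 0.05, all lower, where 6.96% of all genes passed and 2.41% passed as lower, and the median log2 fold change of the 13 was -1.49 beside 0.13 over all genes. The count was 3 without SHP099 replicate 2 or without SHP099 replicate 3, and 0 with no filter on low FPKM. Against WT, 2 passed in M-Shp2-/-, both lower, Il6 and Csf2, where 0.0873% of all genes passed, with a median of -1.23 beside 0.15. Csf2 passed there in 4 of 17 alternatives (adjusted p 0.0401 to 0.258) and in 0 of the 6 fits with a library left out. Lif, a ligand of gp130, had an FPKM of 75.3, 83.9 and 95.2 in WT, 32.0, 30.8 and 54.8 in M-Shp2-/- and 16.6, 14.8 and 28.2 in SHP099 libraries, without overlap between the 3 groups. It fell by 2.09 on the log2 scale in SHP099 against WT (adjusted p = 0.00846 from limma). Il12b, a subunit of IL-12 and IL-23, had an FPKM of 1411, 247 and 737 in WT, 340, 509 and 75.8 in M-Shp2-/- and 31.3, 57.3 and 98.4 in SHP099 libraries. It fell by 3.48 in SHP099 against WT (adjusted p = 0.0309), it passed in 12 of 17 alternatives, and the WT and M-Shp2-/- libraries overlapped. Il6, Csf2 and Il23a had log2 fold changes of -2.93, -2.54 and -2.22 in SHP099 against WT, and Csf2, the gene of GM-CSF, overlaps Gm12223 on the opposite strand.

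Of 36 receptor chains 26 were tested. In SHP099 against WT 3 passed, all lower, with a median of -0.16, where 6.96% of all genes passed and 2.41% passed as lower. In M-Shp2-/- against WT 0 passed (3 at an unadjusted p under 0.05, as did 10.5% of all genes, and 0 by voom), with a median of 0.00. In SHP099 the count was 1 without SHP099 replicate 2 or with no filter on low FPKM, and 5 lower and 1 higher without WT replicate 3. The first, Csf2rb, encodes the common beta chain of the receptors for GM-CSF, IL-3 and IL-5. Its FPKM was 479, 427 and 388 in WT, 356, 391 and 227 in M-Shp2-/- and 205, 153 and 181 in SHP099 libraries, and it fell by 1.26 in SHP099 against WT (adjusted p = 0.00769 from limma). Its neighbour and close copy Csf2rb2 fell by 0.84 (adjusted p = 0.0109), and the FPKM of these genes are uncertain where they share reads. Il7r, the receptor chain of IL-7 and TSLP, fell by 0.79 (adjusted p = 0.00846), and its FPKM lay between 50.8 and 59.3 in the SHP099 and between 93.5 and 99.4 in the WT libraries.

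All 4 JAK kinases were tested, and 1, Jak2, passed in SHP099 against WT, where it fell by 0.57 (adjusted p = 0.0485 from limma). Its adjusted p lay between 0.0326 and 0.192 over the alternatives, and it passed in 4 of 17. Of the kinases 0 passed in M-Shp2-/- against WT (1 at an unadjusted p under 0.05, beside 10.5% of all genes, and 0 by voom). Of 7 STAT genes 6 were tested, and 1, Stat5a, passed in SHP099 against WT, where 6.96% of all genes passed. Stat5a, which carries the GM-CSF signal, had an FPKM of 70.9, 38.6 and 43.7 in WT, 49.8, 66.0 and 22.9 in M-Shp2-/- and 25.9, 26.4 and 24.4 in SHP099 libraries. It fell by 0.92 (adjusted p = 0.0477), passing in 9 of 17 alternatives, and 72 of its exon bases overlap Stat3 on the opposite strand. Of the STAT genes 0 passed in M-Shp2-/- against WT (2 at an unadjusted p under 0.05, beside 10.5% of all genes, and 0 by voom), with a median of -0.34 over the list.

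Partners and relatives of the SOCS proteins were counted next. Of the 7 genes of the ubiquitin ligase that the SOCS box recruits, all were tested and 0 passed limma in either comparison with WT (0 in M-Shp2-/- and 1 in SHP099 at an unadjusted p under 0.05, beside 10.5% and 26.7% of all genes, and 0 by voom). Their log2 fold changes lay between -0.01 and 0.17 in M-Shp2-/- and between -0.01 and 0.24 in SHP099 against WT. The most abundant, the elongin gene Elob, had an FPKM of 288.4 ± 11.0 in WT, 292.9 ± 35.3 in M-Shp2-/- and 287.5 ± 7.52 in SHP099 (SD, n = 3 each), followed by Nedd8 with 188.9 ± 13.8, 188.6 ± 20.9 and 187.5 ± 20.5. Nedd8 overlaps Gmpr2, and Elob overlaps Srrm2, on the opposite strand. Of 24 other genes with a SOCS box 13 were tested and 0 passed (1 in M-Shp2-/- and 4 in SHP099 at an unadjusted p under 0.05, and 0 by voom), with medians of 0.17 and 0.30. In SHP099 against WT 2 of them passed as higher without WT replicate 3, where 11.1% of all genes passed. With all 9 libraries in one fit, where 6.77% of all genes passed, 1 of them passed as higher. The most abundant were Wsb1, at 218.4 ± 31.2 in WT, 211.6 ± 48.0 in M-Shp2-/- and 276.4 ± 8.79 in SHP099, and Wsb2, at 174.7 ± 11.1, 198.6 ± 29.5 and 183.4 ± 8.56. Of 12 inhibitors of the pathway outside the family, which include phosphatases and PIAS proteins, all were tested and 0 passed (1 in M-Shp2-/- and 2 in SHP099 at an unadjusted p under 0.05, and 0 by voom), with medians of 0.07 and 0.06. In SHP099 against WT 1 passed as lower without WT replicate 3 (11.1% of all genes) and 1 with the replicate block (5.16%). The phosphatase genes Ptpn6 and Ptpn1 were the most abundant, with log2 fold changes of 0.11 and -0.07 in M-Shp2-/- and of 0.18 and -0.13 in SHP099 against WT. The lowest of the 12 was Usp18, which restrains signaling by the type I interferon receptor, at -1.73 in M-Shp2-/- (adjusted p = 0.454) and -1.66 in SHP099 against WT (adjusted p = 0.0914).

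Of 16 STAT target genes outside the family 15 were tested, of which Osm is also counted among the ligands and Il4ra among the receptor chains. In SHP099 against WT 5 passed as lower and 1 as higher, beside 2.41% and 4.55% of all genes, with a median of -0.34. Among the targets 0 passed in M-Shp2-/- against WT (6 at an unadjusted p under 0.05, beside 10.5% of all genes, and 0 by voom), with a median of -0.41. The count of lower targets in SHP099 was 3, 2 and 1 without SHP099 replicates 1, 2 and 3, and 0 with no filter on low FPKM. Ccnd2, the gene of cyclin D2, fell by 1.45 in SHP099 against WT (adjusted p = 0.00911 from limma), Osm fell by 1.46 (adjusted p = 0.0176) and Nfil3 fell by 0.99 (adjusted p = 0.0192, passing in 13 of 17 alternatives). Exons of Ccnd2 and Bcl6 overlap genes on the opposite strand. Bcl6, a repressor that binds many STAT sites, was the gene that rose, with an FPKM of 3.19, 4.13 and 4.33 in WT, 3.49, 2.87 and 7.85 in M-Shp2-/- and 7.01, 17.5 and 10.9 in SHP099 libraries (log2 fold change 1.31, adjusted p = 0.0439). Bcl6 passed in 5 of 17 alternatives. Fos, a component of AP-1, had an FPKM of 9.29, 9.13 and 2.73 in WT, 6.19, 4.98 and 5.60 in M-Shp2-/- and 1.19, 1.17 and 1.32 in SHP099 libraries. It fell by 1.71 in SHP099 against WT (adjusted p = 0.0445) and passed in 6 of the 16 alternatives in which it was tested. It was the 1 gene of these lists that differed between M-Shp2-/- and SHP099, where it was higher in M-Shp2-/- by 1.56 (adjusted p = 0.0163) and passed in 8 of 16 alternatives. In the other lists 0 genes passed that comparison, and at an unadjusted p under 0.05 there were 2 ligands, 8 receptor chains, 0 JAK kinases, 1 STAT gene, 0 ligase partners, 4 other SOCS-box genes and 0 other inhibitors, where 12.6% of all genes were under it, with 0 by voom in each. Without M-Shp2-/- replicate 3, where 19.9% of all genes passed, this comparison gave 10 receptor chains, 3 STAT genes, 1 JAK kinase, 1 ligand, 1 other SOCS-box gene and 5 STAT targets as higher. As lower it then gave 2 receptor chains, 1 ligand, 3 other SOCS-box genes, 1 other inhibitor and 3 STAT targets.

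**Figure D5:**
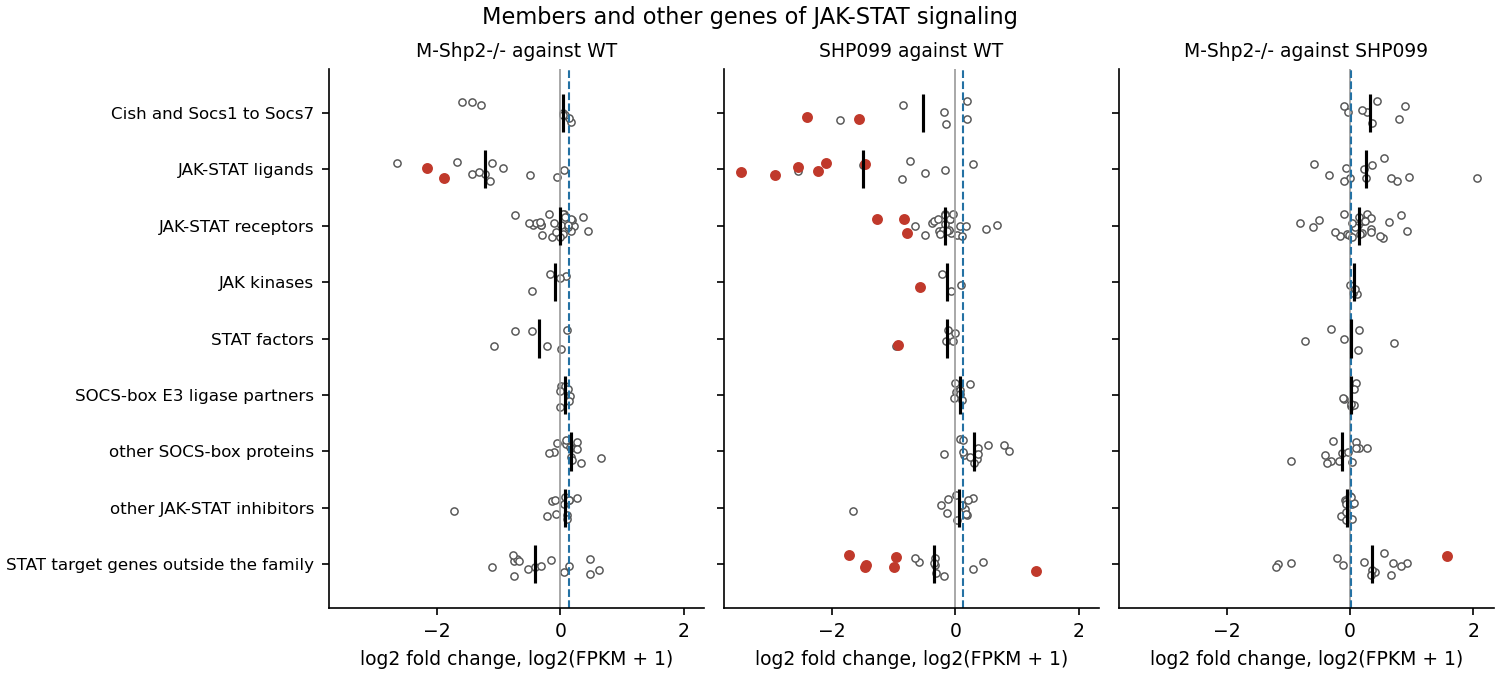
log2 fold change (horizontal axis, log2(FPKM + 1) scale) of the 8 members and of the tested genes of 8 lists in the 3 comparisons, one point per gene, filled where the adjusted p from limma was at most 0.05, with a vertical bar at the median of each list and a dashed line at the median of all tested genes. The ligands lie lowest in both comparisons with WT (medians -1.23 and -1.49), and the ligase partners lie close to 0.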

How the data were processed

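The sequencing was paired-end on poly-A RNA. The submitters' notes name CASAVA 1.8, HISAT2 2.0.4 and HTSeq 0.9.1, and the authors deposited FPKM for 54059 genes, without naming the strand of counting. The members and lists were chosen with earlier results of these data known.

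Symbols came from GENCODE M21 (GRCm38, exact for 91.8% of 5235 deposited gene spans) and promoters from RefSeq. Reads were recovered from FPKM times gene length, whole within 0.05 in 96.3% to 96.7% of values up to 50 reads (10% by chance). Genes whose FPKM averaged 1 or more were compared on log2(FPKM + 1) with limma 3.58.1 (R 4.3.3; lmFit, eBayes with trend), 6 libraries per fit, adjusted by Benjamini-Hochberg over 11450 genes. This scale understates changes of low genes. The procedure was tested on simulated data.

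Named were all members, Ptpn11, per list up to 5 genes at an adjusted p of 0.05 (otherwise the 2 most abundant), and per member the 3 genes of highest r, of which 1 is not reported here. Alternatives were other pseudocounts, filters, scalings and variance priors, a joint fit, a replicate block, voom on recovered reads, and each library left out.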

Additional observations from a re-analysis of the deposited data

How the results depend on the processing

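The thresholds of the study's methods were applied here to limma and voom in place of the study's DESeq test. At them the count of members was 0 in each of the 3 comparisons under all 17 alternatives. For M-Shp2-/- against WT it was also 0 at an adjusted p of at most 0.05. For SHP099 against WT the 2 members at an adjusted p of at most 0.05 became 0 with no filter on low FPKM (Cish 0.0623, Socs3 0.0809), where more genes were tested, and 1 to 3 with single libraries left out. With a mean FPKM of at least 5 or all 9 libraries in one fit the count was 3, with Socs1 at an adjusted p of 0.0455 and 0.0421. For M-Shp2-/- against SHP099 the count ranged from 0 to 1 with single libraries left out. Over the alternatives the adjusted p for SHP099 against WT lay between 0.00608 and 0.0623 for Cish, between 0.00827 and 0.0888 for Socs3 and between 0.0202 and 0.201 for Socs1.

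With the replicate block the count of members at an adjusted p of at most 0.05 was 0 in M-Shp2-/- against WT, 3 in SHP099 against WT (Socs1 at 0.0202) and 0 in M-Shp2-/- against SHP099. Deviations of equally numbered libraries correlated at 0.49, -0.43 and 0.19 between M-Shp2-/- and WT, at -0.04, -0.09 and 0.45 between SHP099 and WT and at -0.01, 0.18 and -0.05 between M-Shp2-/- and SHP099. The labels give only the number. Deviations in a group are tied by its mean, so that 3 values per comparison cannot decide whether equal numbers mark a shared preparation.

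The sign turned only in M-Shp2-/- against WT and for members that did not pass. With median-of-ratios scaling the log2 fold change was -0.0672 for Socs2, -0.0828 for Socs4, -0.12 for Socs6 and -0.0170 for Socs7. With quantile normalization it was -0.16 for Socs2, -0.0694 for Socs4, -0.0213 for Socs5, -0.13 for Socs6 and -0.0174 for Socs7. With voom it was -0.0844 for Socs2, -0.0668 for Socs4 and -0.12 for Socs6. With single libraries left out it ranged from -0.29 to 0.28 for Socs2, from -0.0152 to 0.27 for Socs5 and from -0.0158 to 0.12 for Socs6. Socs2 and Socs5 have no value at a mean FPKM of at least 5.

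The count of all genes at an adjusted p of at most 0.05 ranged from 1 to 12 for M-Shp2-/- against WT (10 as reported), from 47 to 1273 for SHP099 against WT (797) and from 0 to 2277 for M-Shp2-/- against SHP099 (8). Socs2 and Cish, with as few as 28 and 77 reads, are limited most by depth.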
